A study of Mus musculus with 17 samples.

Results

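The leukocyte and homing integrins are 9 genes for adhesion receptor chains of blood cells: Itga4, Itga5, Itga6, Itgal, Itgam and Itgav, which encode alpha chains, and Itgb1, Itgb2 and Itgb7, which encode beta chains. They were taken by name, as every probe set on the array whose annotation gave exactly 1 gene symbol and whose symbol was one of the 9. This gave 27 probe sets of 45101 and 9 genes of the 18193 measured. The study profiled progenitor cells sorted from the bone marrow of mice aged 10 to 14 weeks on 17 Affymetrix arrays, in 5 fractions. No genetic change, strain or treatment is named in the labels, and all fractions are defined by surface proteins alone. The common lymphoid progenitor fraction (CLP, 3 arrays) was Lin-Sca1lowKitlowIL7r+Flk2+. The other fractions were all Lin-Sca1-Kit+, which means that they lacked the lineage markers and Sca1 and carried the receptor Kit. Among them, preGM (pre-granulocyte/macrophage, 3 arrays) was Itga2b-FcgRlowSlamf1-Englow, and preMegE (the common precursor of the megakaryocyte and red cell lines, 5 arrays) was Itga2b-FcgRlowSlamf1+Englow. The erythroid step preCFUE (3 arrays) was Itga2b-FcgRlowSlamf1+Enghigh, and the megakaryocyte progenitor MkP (3 arrays) was Itga2b+Slamf1+. Nothing in the labels ties an array to its own animal or sort, so each p-value reflects only the scatter among arrays of a fraction, part or all of which could be technical.

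Integrins are cell surface receptors made of 1 alpha and 1 beta chain, and the pair decides which ligand is bound. Itga4 pairs with Itgb1 to bind VCAM1 and fibronectin on marrow stroma, and with Itgb7 to bind MAdCAM1 on gut vessels. Itgal and Itgam pair with Itgb2 to form LFA-1, a receptor for ICAMs, and Mac-1, a receptor of mature myeloid cells. Itga6 pairs with Itgb1 to bind laminin, Itga5 pairs with Itgb1 to bind fibronectin, and Itgav pairs with Itgb3, Itgb5 and other chains to bind vitronectin. These receptors hold progenitors in the marrow and carry lymphoid cells to other tissues.

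The values are the authors' linear array intensities after RMA. Tests were made with limma on log2(intensity + 16), with Benjamini-Hochberg adjustment over all 18193 genes and a threshold of 0.05. All differences are on that scale, which understates changes of dim genes, and intensities of different probe sets were not compared with each other. Where a gene had several probe sets, the one with the highest mean was used, and the others are described separately. In bulk RNA of this kind, fewer cells of a type and less RNA per cell cannot be told apart.

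The labels were checked against markers of each fraction. All 6 markers of CLP, preGM, MkP and preCFUE had their highest mean in the named fraction, as did 3 of 4 for preMegE, with the fourth highest in preCFUE. CLP replicate 2 stood apart: its values correlated more closely with the preGM arrays (mean r = 0.962) than with the other CLP arrays (mean r = 0.948). The log2 ratio of 3' to 5' Gapdh control signal, which rises as labelled RNA gets shorter, ran from 2.72 to 5.12 over the arrays. PreMegE replicate 3 had the highest upper quartile intensity of all arrays (74.4, against 50.6 for the lowest) and was the highest of its fraction for 6 of the 9 integrin genes. MkP replicate 2, with the highest upper quartile of its fraction (56.9), was also highest for 6. PreGM replicate 3, with the lowest upper quartile of its fraction (60.4), was highest for 7. The summed intensity of 9 neutrophil genes ran from 262 to 1622 in preGM, from 136 to 1614 in preMegE and from 163 to 1478 in MkP, but from 123 to 261 in CLP and from 249.95 to 435 in preCFUE. Its part in the integrin results was not tested.

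The integrin genes differed among the progenitors in several unlike patterns. Itga4, Itga6, Itgal, Itgav, Itgb2 and Itgb7 passed the moderated F test over the 5 fractions, which makes 6 of 9, where 34.9% of all genes passed. Itga5, Itgam and Itgb1 did not pass (adjusted p = 0.293, 0.814 and 0.0728). Over the 10 pairwise comparisons, 32 of 90 differences passed, where 15.4% of all gene tests in those comparisons did, 8 of them for Itga6, 7 for Itgal, 6 for Itgb7, 4 each for Itga4 and Itgb2, 2 for Itgb1 and 1 for Itgav.

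**Figure D1:**
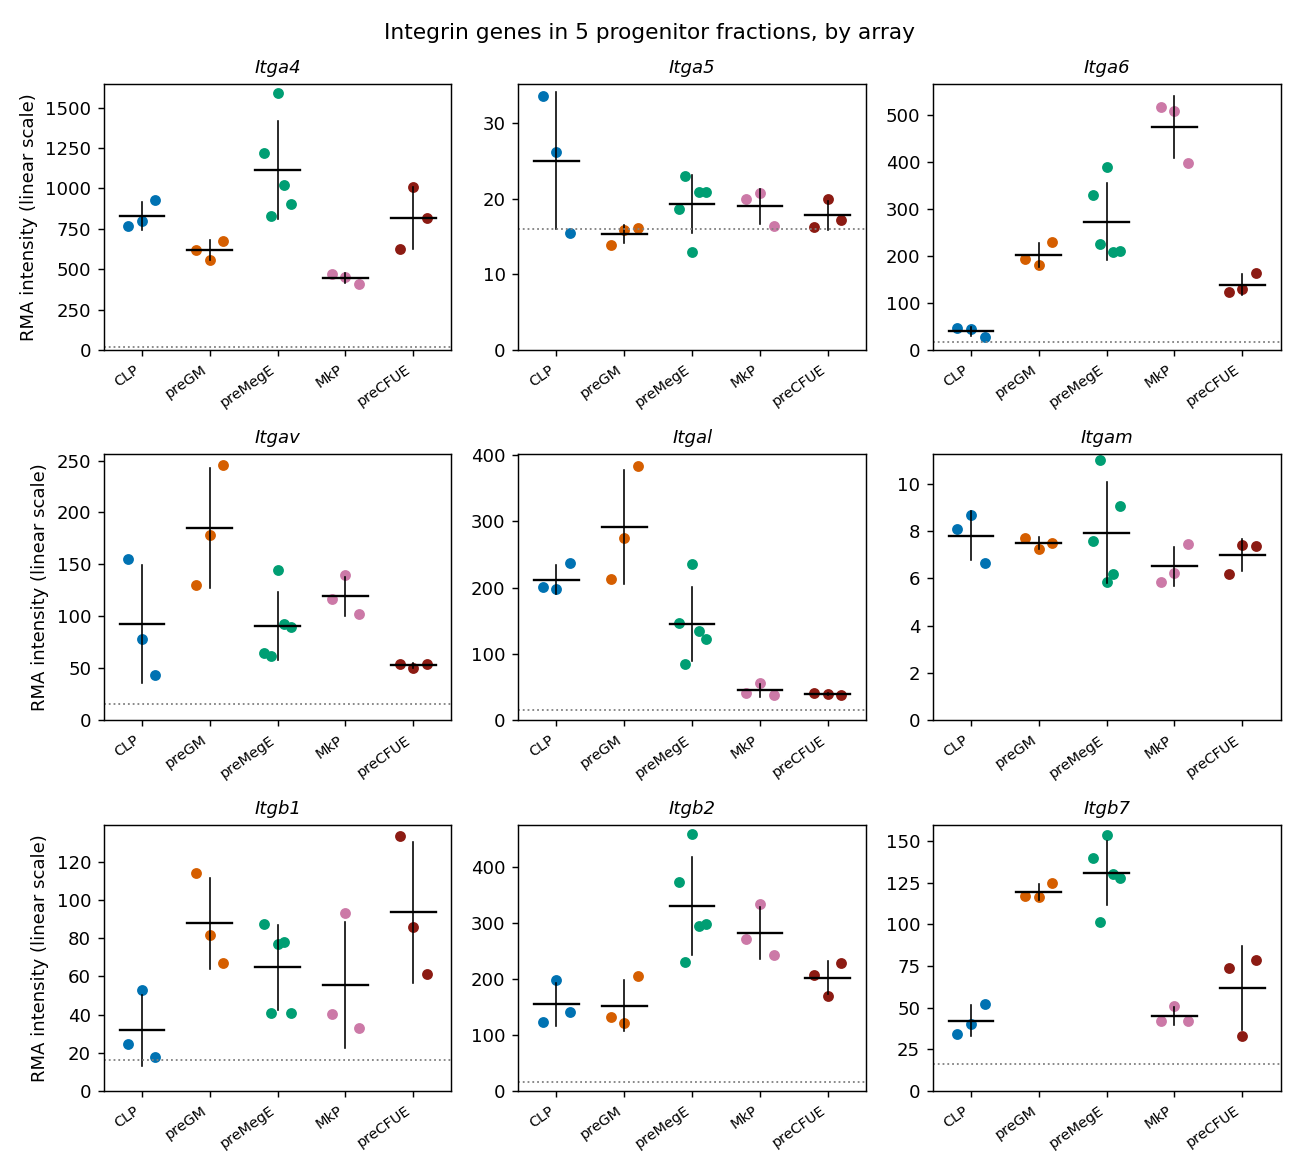
Intensity on the authors' linear RMA scale of the 9 integrin genes in each of the 17 arrays, by fraction, on linear axes that start at 0 with 1 panel per gene. Each point is 1 array, the horizontal line is the fraction mean, the vertical line spans ± 1 SD, and the dotted line marks an intensity of 16. Itgal sits between 38.4 and 56.4 on every MkP and preCFUE array and above 85 on every other, while Itgam stays below 16 on all 17.

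Itgal, the alpha chain of LFA-1, was low in MkP and preCFUE and higher in CLP, preGM and preMegE. Itgal read 202, 198 and 237 in CLP, 214, 276 and 384 in preGM, and 146, 85.3, 236, 134 and 122 in preMegE. It read 40.8, 56.4 and 38.4 in MkP and 40.9, 39.8 and 38.6 in preCFUE. Every MkP and preCFUE array was below every array of the other fractions, while preMegE overlapped with both CLP and preGM. Itgal was lower in MkP than in preGM by a log2 difference of -2.30 ± 0.26 (SE; adjusted p = 2.92e-05) and lower in preCFUE than in preGM by -2.42 ± 0.26 (adjusted p = 9.83e-06). Against preMegE the differences were -1.34 ± 0.23 in MkP (adjusted p = 0.00156) and -1.46 ± 0.23 in preCFUE (adjusted p = 0.000867). CLP was above MkP by 1.91 ± 0.26 (adjusted p = 0.000125) and above preCFUE by 2.03 ± 0.26 (adjusted p = 3.92e-05).

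The preMegE mean of Itgal lay between those of CLP and preGM and those of MkP and preCFUE. PreMegE was below preGM by -0.96 ± 0.23 (adjusted p = 0.0148), with overlapping arrays, since preMegE replicate 3 at 236 lay above the lowest preGM array at 214. Without that array the difference was -1.14 (adjusted p = 0.00103). The excess of CLP over preMegE (0.56 ± 0.23, adjusted p = 0.0881) passed without the same array (0.74, adjusted p = 0.0125). For preMegE against preGM, without preGM replicate 3 the adjusted p was 0.0962, and without preGM replicate 2 it was 0.0504. With only the arrays compared it was 0.099, and with the replicate numbers as a block 0.0942. The order of the levels was preGM, CLP, preMegE, MkP, preCFUE, and only the step from preMegE to MkP separated neighbours beyond the test.

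Itgb2, the beta chain that LFA-1 and Mac-1 share, did not follow Itgal. It read 124, 199 and 141 in CLP, 132, 121 and 205 in preGM, 373, 230.0, 459, 295 and 299 in preMegE, 272, 334 and 243 in MkP, and 207, 171 and 229 in preCFUE. Every preMegE and MkP array was above every CLP, preGM and preCFUE array. Itgb2 was higher in preMegE than in preGM by 1.04 ± 0.21 (adjusted p = 0.00515) and higher than in CLP, as CLP minus preMegE was -1.01 ± 0.21 (adjusted p = 0.00348). MkP exceeded preGM by 0.85 ± 0.24 (adjusted p = 0.0352) and CLP by a difference of the same kind (CLP minus MkP -0.82 ± 0.24, adjusted p = 0.0372). The calls of both MkP differences, though not their size, depended on single arrays. The first was 0.71 to 0.94 with an adjusted p of 0.0558 to 0.141 without any one of preGM replicates 1 and 2 and MkP replicates 1 to 3, and the second was -0.69 to -0.84 with an adjusted p of 0.0847 to 0.143 without any one of CLP replicates 1 and 3 and MkP replicates 1 and 2. MkP and preCFUE, which held the lowest Itgal levels, therefore had Itgb2 levels above those of preGM and CLP (MkP) or a difference from them that did not pass (preCFUE).

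The difference between preMegE and preGM had opposite signs for the alpha and beta chain of LFA-1. In preMegE, Itgal was lower by 0.96 and Itgb2 higher by 1.04 on the log2 scale between the same arrays. No neighbouring fractions in the order of Itgb2 (preMegE, MkP, preCFUE, CLP, preGM) passed the test, and the fall from preMegE to preCFUE did not pass (-0.64 ± 0.21, adjusted p = 0.0868), although the arrays of these fractions did not overlap. It did pass with quantile-normalized arrays (adjusted p = 0.0126), array weights (0.0148), a minimum mean of 32 (0.0499) and without preMegE replicate 2 (0.0374). The neutrophil sum and Itgb2 rose in the same order in preCFUE (sums 249.95, 310.3 and 435; Itgb2 171, 207 and 229), and the preMegE array with the lowest sum (136) had the lowest Itgb2 value (230.0). The preMegE array with the highest sum (1614) had an Itgb2 value of 299, below the highest of its fraction. In MkP the array with the lowest sum (163) had the highest Itgb2 value (334), as in CLP (sum 123, Itgb2 199). In preGM the array with the highest sum (1622) had the lowest Itgb2 value (121). The 9 neutrophil genes did not share a pattern: 4 had their highest mean in preGM, 3 in MkP, 1 in CLP and 1 in preMegE. The part of neutrophil RNA in the Itgb2 result was not tested.

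Itgam, the alpha chain of Mac-1 and a marker of mature myeloid cells, read between 5.85 and 10.98 on all 17 arrays. It lay below the array's median intensity on every one, also on the arrays with high neutrophil sums. The lineage depletion of such sorts usually includes the Itgam protein. No pairwise difference passed for it, and the fraction means spanned 0.08 on the log2 scale.

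The start region of Itgam is shown because the gene is a textbook target of the myeloid ETS factor PU.1. The 250 bases before the RefSeq start (GRCm38.p6, chr7:128062390-128062639, plus strand) are printed with matches to GAGGAA, a PU.1-type core, in capitals.
Itgam: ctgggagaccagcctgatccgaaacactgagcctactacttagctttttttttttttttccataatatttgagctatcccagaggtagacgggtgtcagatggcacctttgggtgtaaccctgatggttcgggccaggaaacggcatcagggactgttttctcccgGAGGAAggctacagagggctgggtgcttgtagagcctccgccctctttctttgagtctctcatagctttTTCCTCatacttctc
One match lay on the gene's strand with its first base 84 bases before the start, and the other lay on the opposite strand 15 bases before it. On either strand, GAGGAA was found in 23.25% of the 32851 RefSeq windows of this length. A match is a description of the letters and was not tested for binding.

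**Figure D2:**
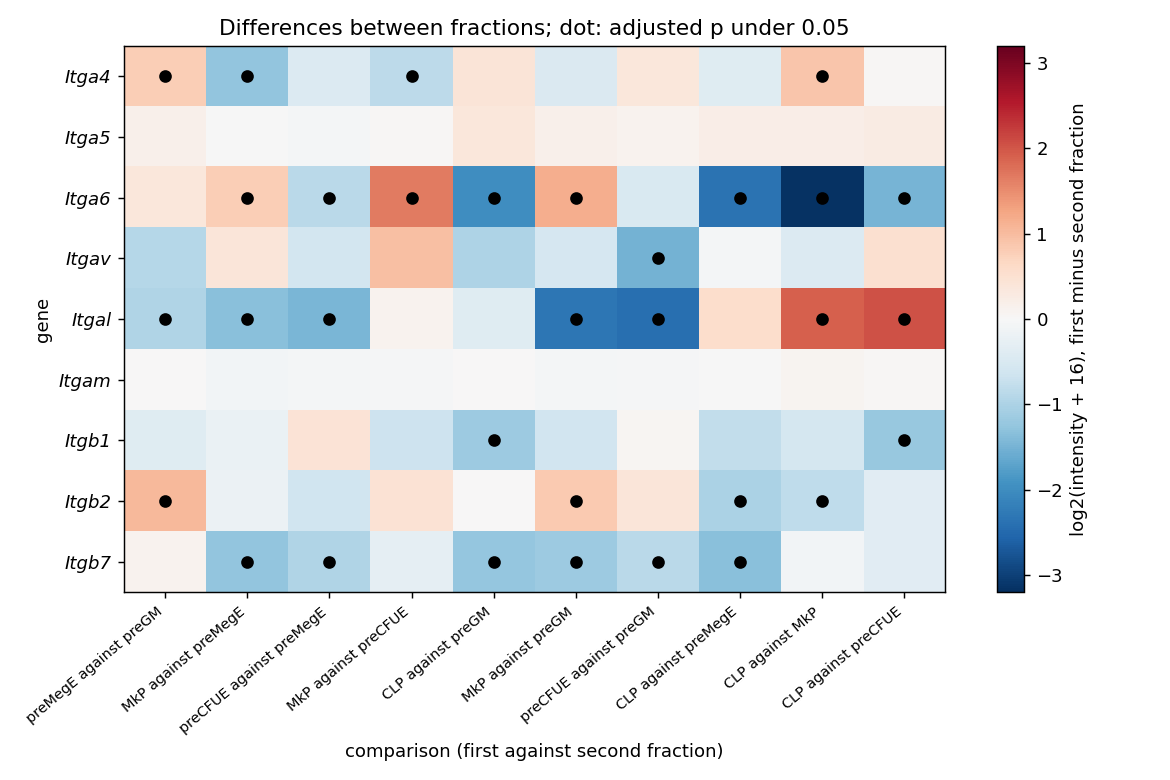
Log2 differences, first fraction minus second, of the 9 integrin genes in the 10 pairwise comparisons, as cells coloured from blue (lower in the first fraction) to red (higher). A dot marks an adjusted p below 0.05 with limma over all genes; Itga6 carries 8 dots, Itgal 7 and Itgam none.

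Itga4, the alpha chain that binds VCAM1 with Itgb1 and MAdCAM1 with Itgb7, was measured at high intensity in every fraction. It read 766, 797 and 926 in CLP, 621, 558 and 677 in preGM, and 1222, 832, 1590.2, 1022 and 905 in preMegE. In MkP it read 471, 448 and 410.1, and in preCFUE 626, 1008 and 815. The 3 MkP arrays were the lowest of all 17, and every preMegE array was above every preGM array. Itga4 was higher in preMegE than in preGM by 0.80 ± 0.19 (adjusted p = 0.012). It was lower in MkP than in preMegE by -1.26 ± 0.19 (adjusted p = 0.000435), in MkP than in preCFUE by -0.83 ± 0.21 (adjusted p = 0.0138), and higher in CLP than in MkP by 0.88 ± 0.21 (adjusted p = 0.0109).

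The Itga4 order was preMegE, CLP, preCFUE, preGM, MkP, and no neighbours in it differed beyond the test. PreMegE replicate 3 held the highest value, and without it the excess of preMegE over preGM was 0.66 (adjusted p = 0.0141). The difference between MkP and preCFUE was the least settled: with quantile-normalized arrays it was -0.44 (adjusted p = 0.216), and it did not pass without MkP replicate 3 or without preCFUE replicate 2 (adjusted p = 0.0553 and 0.0599). The excess of preMegE over preGM had an adjusted p of 0.0699 without preGM replicate 2.

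Itgb7, the beta chain of the gut homing receptor, was high in the 2 fractions at the base of the myeloid tree and low elsewhere. It read 117, 116 and 125 in preGM and 139.8, 101, 154, 130.4 and 128 in preMegE. It read 34.0, 40.4 and 52.2 in CLP, 41.8, 51.2 and 42.1 in MkP, and 74.0, 32.98 and 78.8 in preCFUE. Every preGM and preMegE array was above every array of the other 3 fractions, and preCFUE was split, with replicate 2 at the level of CLP. Against preMegE, Itgb7 was lower in MkP by -1.26 ± 0.18 (adjusted p = 0.000426), in preCFUE by -0.96 ± 0.18 (adjusted p = 0.00382) and in CLP by -1.33 ± 0.18 (adjusted p = 0.000109). Against preGM it was lower in MkP by -1.15 ± 0.21 (adjusted p = 0.00207), in preCFUE by -0.86 ± 0.21 (adjusted p = 0.0106) and in CLP by -1.23 ± 0.21 (adjusted p = 0.0015).

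In CLP the gut homing beta chain had a mean of 42.2 ± 9.25 (SD, n = 3), not separable from MkP (adjusted p = 0.889) or preCFUE (0.203). Within the order preMegE, preGM, preCFUE, MkP, CLP, only the step from preGM to preCFUE passed between neighbours. The sum of 5 mast cell and basophil genes followed the same split: 235 to 346 in preGM and 206 to 268 in preMegE, against 74.9 to 109.5 on the arrays of the other fractions. The 5 genes did not all do so: 2 had their highest mean in preGM and 1 in preMegE, but 1 in CLP and 1 in MkP. Mast cells and basophils are known to carry Itgb7. The part of such cells in the Itgb7 result was not tested.

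The start regions of this receptor's chains are printed side by side, each as the 250 bases before the RefSeq start on the gene's strand in GRCm38.p6, with matches to any motif searched in capitals. Itga4 lies at chr2:79255176-79255425 on the plus strand and Itgb7 at chr15:102231936-102232185 on the minus strand.
Itga4: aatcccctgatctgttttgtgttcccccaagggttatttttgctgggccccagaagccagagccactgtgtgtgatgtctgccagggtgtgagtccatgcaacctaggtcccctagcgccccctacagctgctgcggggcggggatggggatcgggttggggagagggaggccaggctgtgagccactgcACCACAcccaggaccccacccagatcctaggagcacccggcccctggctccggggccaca
Itgb7: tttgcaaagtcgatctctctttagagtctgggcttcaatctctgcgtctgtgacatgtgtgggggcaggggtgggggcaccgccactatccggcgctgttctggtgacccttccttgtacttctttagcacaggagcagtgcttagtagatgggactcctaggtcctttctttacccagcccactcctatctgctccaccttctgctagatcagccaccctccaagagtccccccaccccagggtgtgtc
The cores searched, all on both strands, were GAGGAA, the GATA-type core spelled AGATAA, and the RUNX-type core spelled TGTGGT. Itga4 held 1 match to TGTGGT on the opposite strand, with its first base 60 bases before the start, and Itgb7 held none of the motifs in this window. AGATAA was in 9.988% of all windows and TGTGGT in 14.05%. The Itga4 window was 64% G and C and the Itgb7 window 56%, where the median of all windows was 52.4%. RefSeq windows were matched for 6 of the 9 genes.

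Itga6, the alpha chain of a laminin receptor of stem cells and megakaryocytes, showed the widest differences. It read 45.6, 44.0 and 27.7 in CLP, 194, 180.1 and 229 in preGM, and 328, 225, 388, 209 and 211 in preMegE. In MkP it read 516, 509 and 397, and in preCFUE 123, 129.9 and 163. The 3 MkP arrays were the highest of all and the 3 CLP arrays the lowest, and preCFUE lay below every preGM and preMegE array. Itga6 in CLP was below MkP by -3.16 ± 0.22 (adjusted p = 1.28e-07), below preMegE by -2.36 ± 0.20 (adjusted p = 6.24e-07), below preGM by -1.99 ± 0.22 (adjusted p = 3.87e-05) and below preCFUE by -1.50 ± 0.22 (adjusted p = 0.000141). Without CLP replicate 2 these differences were -3.23, -2.43, -2.06 and -1.57, all with an adjusted p of at most 0.000286.

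Relative to preMegE, Itga6 was higher in the platelet branch fraction MkP and lower in the red cell branch fraction preCFUE. MkP was above preMegE by 0.80 ± 0.20 (adjusted p = 0.0177) and preCFUE was below it by -0.86 ± 0.20 (adjusted p = 0.0118), so that MkP exceeded preCFUE by 1.66 ± 0.22 (adjusted p = 0.000124). MkP was also above preGM by 1.17 ± 0.22 (adjusted p = 0.00292). The excess of MkP over preMegE had an adjusted p of 0.08 without MkP replicate 1 and 0.0622 without MkP replicate 2. With the replicate numbers as a block it was 0.59 (adjusted p = 0.153), and with the second probe set, described below, it did not pass either. The deficit of preCFUE had an adjusted p of 0.0664 without preCFUE replicate 1 and 0.0538 without preCFUE replicate 2. The excess of preMegE over preGM (0.37 ± 0.20, adjusted p = 0.407) and that of preGM over preCFUE (0.49 ± 0.22, adjusted p = 0.197) did not pass.

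Itgb1, the beta chain that Itga4, Itga5 and Itga6 share, read 24.7, 53.0 and 17.7 in CLP, 114, 81.8 and 67.2 in preGM, and 87.6, 40.9, 77.0, 78.2 and 40.7 in preMegE. It read 40.1, 93.4 and 33.1 in MkP and 134, 86.1 and 61.1 in preCFUE. The spread within a fraction was wide, and only CLP was separated, lying below every preGM and preCFUE array. CLP was below preGM by -1.16 ± 0.36 (adjusted p = 0.0412) and below preCFUE by -1.21 ± 0.36 (adjusted p = 0.0211). Without CLP replicate 2 the differences were -1.46 and -1.51 (adjusted p = 0.0106 and 0.00661). The first was -0.95 to -1.19 with an adjusted p of 0.0517 to 0.159 without any one of CLP replicates 1 and 3, preGM replicates 1 and 2, preMegE replicate 4 and preCFUE replicate 2. The second was -0.96 to -1.13 with an adjusted p of 0.0692 to 0.105 without any one of CLP replicates 1 and 3 and preCFUE replicate 1. The F test for Itgb1 passed without CLP replicate 2 (adjusted p = 0.0285) or MkP replicate 2 (0.0291), with a pseudocount of 4 (0.0478), a minimum mean of 32 (0.0254) or array weights (0.0491), and the difference between CLP and preMegE passed without CLP replicate 2 (-1.08, adjusted p = 0.0273).

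The level of Itgb1 moved with the 3' to 5' ratio of the control gene. In each of the 5 fractions, the array with the highest Itgb1 value was the array with the lowest ratio, which held for 3.02% of all genes and for no other integrin gene. With that ratio as a covariate, the difference between CLP and preGM was -0.69 (adjusted p = 0.0762) and that between CLP and preCFUE was -0.87 (adjusted p = 0.00867). When all probe sets of the gene were averaged, they were -0.32 (adjusted p = 0.0562) and -0.32 (adjusted p = 0.0389). Of the 6 Itgb1 probe sets, 4 were below 16 on every array, and such dim probe sets draw the mean toward no difference.

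Itga5, the fibronectin receptor's alpha chain, was near the low end of the scale. The CLP arrays ran from 15.5 to 33.6, the preGM arrays from 13.9 to 16.1 and the preMegE arrays from 12.95 to 23.1. The MkP arrays ran from 16.4 to 20.8 and the preCFUE arrays from 16.3 to 20.0. CLP held both the highest value and the widest spread, and no pairwise difference passed. The F test for Itga5 passed without CLP replicate 3 (adjusted p = 0.0265) and with array weights (0.0346).

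Itgav, the alpha chain of vitronectin receptors, read 130.5, 178 and 246 in preGM, 116, 139 and 102 in MkP, and 64.8, 61.7, 144, 93.2 and 89.8 in preMegE. It read 155, 78.7 and 44.0 in CLP and 53.9, 50.3 and 54.6 in preCFUE. PreCFUE was the tightest fraction and lay below every preGM, preMegE and MkP array, whereas the CLP arrays spread across the range of the others. Itgav was lower in preCFUE than in preGM by -1.50 ± 0.33 (adjusted p = 0.00595). That was its 1 difference past the test. The differences of preMegE from preGM (-0.92 ± 0.30, adjusted p = 0.0802), CLP from preGM (-0.98 ± 0.33, adjusted p = 0.0548) and MkP from preCFUE (0.97 ± 0.33, adjusted p = 0.0648) did not pass, though each did without CLP replicate 1 (adjusted p = 0.0268, 0.0132 and 0.0255) and without preMegE replicate 3 (0.0296, 0.0407 and 0.0457), and no neighbours in the order preGM, MkP, preMegE, CLP, preCFUE were separated. The F test for Itgav rested on single arrays: its adjusted p was 0.059 without preGM replicate 2 and 0.0661 without preGM replicate 3, and from 0.0507 to 0.0537 without any one of the preCFUE arrays. With quantile-normalized arrays the adjusted p of this F test was 0.0504.

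Read by comparison, the counts were as follows. From preGM to preMegE, 3 of the 9 genes passed (Itga4 and Itgb2 higher, Itgal lower), where 8.69% of all genes did; without preGM replicate 2 this count was 1. From preMegE to MkP, 4 passed (Itga6 higher; Itga4, Itgal and Itgb7 lower), where 10.3% of all genes did. From preMegE to preCFUE, 3 passed, all lower (Itga6, Itgal and Itgb7), where 8.69% of all genes did and 3.94% were lower. The median difference of the 9 genes was 0.10 in the first of these comparisons, -0.19 in the second and -0.58 in the third, and the median of all genes was 0.01 in each.

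Between MkP and preCFUE, 2 of 9 passed (Itga6 higher in MkP, Itga4 lower), against 16.2% of all genes, and 1 without MkP replicate 3. Between MkP and preGM, 4 of 9 passed (Itga6 and Itgb2 higher in MkP, Itgal and Itgb7 lower), against 11.1%. Between preCFUE and preGM, 3 of 9 passed, all lower in preCFUE (Itgal, Itgav and Itgb7), against 14%, or 8.26% counting lower genes alone. Itgal and Itgb7 were thus lower in both MkP and preCFUE, whichever of preGM and preMegE served as the reference, and these comparisons share their reference arrays.

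CLP differed from preGM in 3 of 9 genes, all lower in CLP (Itga6, Itgb1 and Itgb7), where 18.3% of all genes passed and 13.3% were lower. It differed from preMegE in 3 of 9, all lower (Itga6, Itgb2 and Itgb7), where 25.1% passed and 16.2% were lower. Against MkP, 4 of 9 passed (Itga4 and Itgal higher in CLP, Itga6 and Itgb2 lower), where 12.3% of all genes did. Against preCFUE, 3 of 9 passed (Itgal higher, Itga6 and Itgb1 lower), where 28.8% of all genes did, so the members' share was close to the background there.

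**Figure D3:**
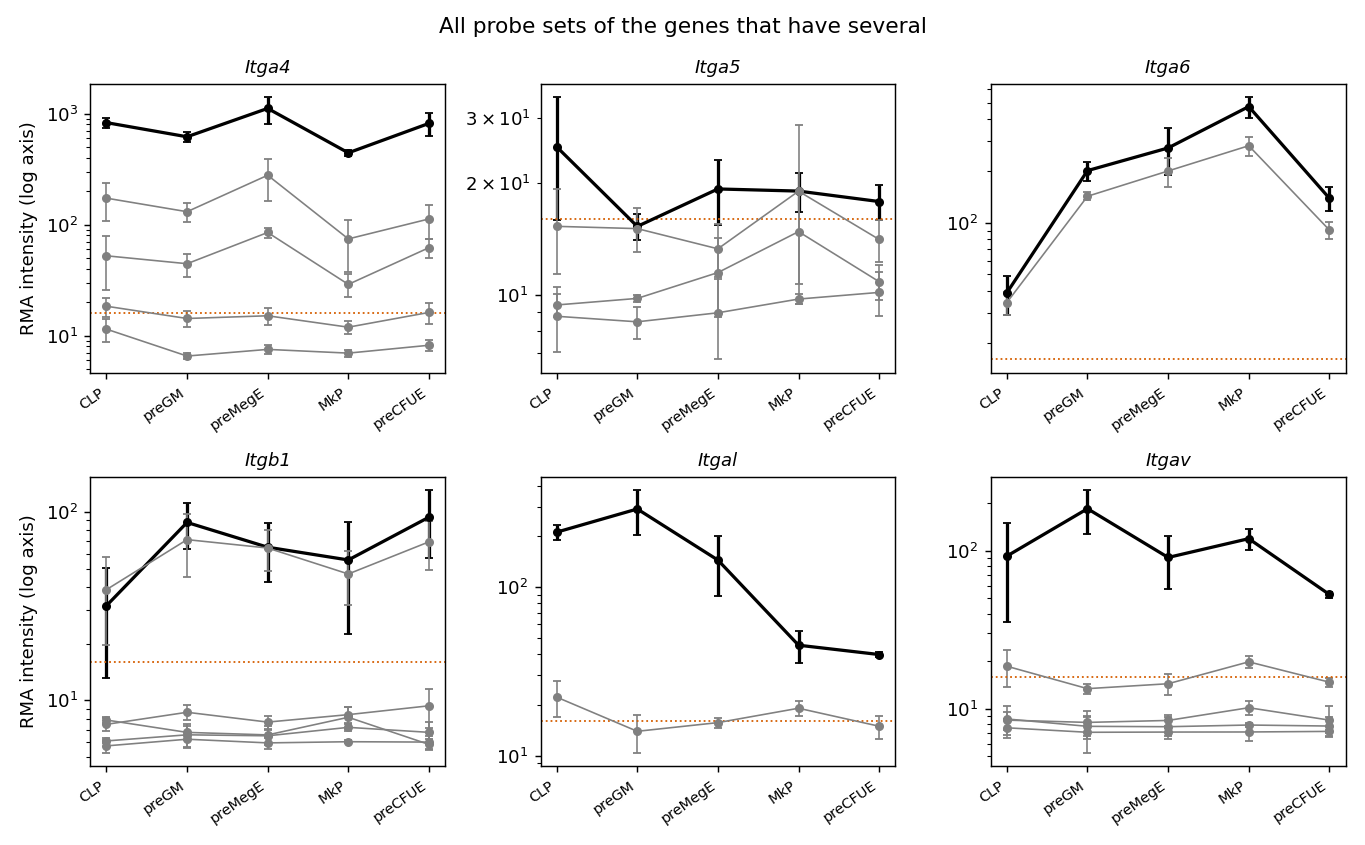
Mean intensity in the 5 fractions, with bars of ± 1 SD, of every probe set of the 6 integrin genes that have several, on a log axis with 1 panel per gene; black marks the probe set used for the gene and grey the others. The dotted line marks an intensity of 16, and 13 of the grey probe sets have a mean below it.

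Of the 27 probe sets, 14 had a mean intensity below 16, and 10 were below it on all 17 arrays. Among all 45037 probe sets that are not controls, 23.7% passed the F test, and 10 of the 27 did. Of the brighter probe sets of Itga4, 1456498_at and 1421194_at were also highest in preMegE and lowest in MkP. Their differences between MkP and preMegE were -1.70 ± 0.33 (adjusted p = 0.00706) and -1.17 ± 0.21 (adjusted p = 0.00357). The other calls of the gene were mostly not repeated: preMegE against preGM (adjusted p = 0.178 and 0.0577) and CLP against MkP (0.103 and 0.216) passed with neither, and MkP against preCFUE passed with 1421194_at (0.047) but not with 1456498_at (0.438). A dim Itga4 probe set, 1427615_at, behaved otherwise: it was below 16 on every array and higher in CLP (11.4 ± 2.63, SD, n = 3) than in preGM (6.54 ± 0.45), with a log2 difference of 0.28 ± 0.06 (adjusted p = 0.0149).

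The second Itga6 probe set, 1422444_at, gave the same order of fractions. MkP read 280.4 and CLP 34.3, with a difference of -2.56 ± 0.15 (adjusted p = 4.39e-08). With it, the rise from preMegE to MkP did not pass (0.47 ± 0.13, adjusted p = 0.0552), and the fall from preGM to preCFUE did (-0.57 ± 0.15, adjusted p = 0.0269). The second Itgal probe set, 1425367_at, was dim, with a mean of 16.99, and gave another order: CLP (22.2) and MkP (19.1) were highest and preGM (13.9) lowest, where the main probe set had MkP (45.2) far below preGM (291). In CLP it was higher than in preGM by 0.35 ± 0.10 (adjusted p = 0.043), where the main probe set read -0.40 ± 0.26 (adjusted p = 0.281). The second Itgb1 probe set was also lowest in CLP, but with it no difference passed, and the difference from preGM was -0.69 ± 0.28 (adjusted p = 0.121). The 4 other Itgav probe sets each had a mean below 16, and 3 were below it on all 17 arrays. The brightest of them, 1432296_a_at, was highest in MkP (19.8) and lowest in preGM (13.4), where the main probe set was highest in preGM (185). With all Itgav probe sets averaged, preCFUE was below preGM by -0.28 (adjusted p = 0.0259), a mean that the dim ones draw toward no difference. Itgb2, Itgb7 and Itgam have 1 probe set each.

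Genes that share a pattern with the integrins were found by Pearson correlation over the 17 arrays among 9125 genes with a mean intensity of at least 32. These correlations share the fractions' differences and the arrays' depth of labelling, and are descriptions. Itga6 was closest to Arhgap6 (r = 0.960), Inf2 (0.954) and Fry (0.944), and Arhgap6 read 22.1 in CLP and 337 in MkP. Itgal was closest to Tns3 (0.961), Crebbp (0.960) and Rnf169 (0.954). Itgb7 was closest to Tob1 (0.946), Cpa3 (0.920), the mast cell carboxypeptidase, and Cd1d2 (0.915). Cpa3 read 153 in preGM and 170.1 in preMegE but 29.7 in MkP, 25.9 in preCFUE and 13.8 in CLP.

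The closest genes to Itgb2 were Gadd45g (r = 0.890), Slamf1 (0.874) and Taok3 (0.868). The Slamf1 protein was used to sort the fractions, and its probe set read 101 in preMegE, 58.6 in MkP, 20.4 in preCFUE, 12.1 in CLP and 10.6 in preGM. Itga4 was closest to Ago1 (0.913), Prr14l (0.908) and Bcl11a (0.895), a transcription factor of lymphoid and fetal globin control that read 1536 in preMegE and 583 in MkP. Itgav was closest to Mfsd6 (0.894), Galnt2 (0.878) and Cgas (0.853).

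Other genes of the pathway were read from lists. Of 15 other integrin chains measured, 5 passed the F test (Itga2b, Itga8, Itgax, Itgb3 and Itgb5), a share near the 34.9% of all genes. Itga2b and Itgb3, the chains of the platelet fibrinogen receptor, were the widest, and the Itga2b protein was itself part of the gates. Itgb3, which also pairs with Itgav, read 771 ± 119 (SD) in MkP, 56.6 ± 18.9 in preGM, and between 13.5 and 15.7 as means of the other 3 fractions. It was higher in MkP than in preMegE by 4.66 ± 0.15 (adjusted p = 1.48e-10), where Itgav differed between them by 0.38 ± 0.30 (adjusted p = 0.466). Itgb5, another partner of Itgav, read 223 in preGM and 69.1 in preCFUE, a difference of -1.48 ± 0.23 (adjusted p = 0.000323), beside the -1.50 of Itgav. In MkP these genes were less alike. Itgb5 had its highest mean there (240), where Itgav read 119 in MkP and 185 in preGM. MkP exceeded preCFUE by 1.56 ± 0.23 for Itgb5 (adjusted p = 0.000301), while the Itgav difference did not pass (0.97 ± 0.33, adjusted p = 0.0648).

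Among 17 integrin ligands measured, 6 passed the F test, which is also near the share of all genes (34.9%). Icam1, a ligand of LFA-1, had means of 92.9 ± 14.1 (CLP), 102 ± 11.5 (preGM), 24.9 ± 2.22 (preMegE), 26.5 ± 8.80 (MkP) and 10.9 ± 0.78 (preCFUE). It was lower in preMegE than in preGM by -1.53 ± 0.12 (adjusted p = 4.92e-07) and higher in CLP than in preCFUE by 2.01 ± 0.13 (adjusted p = 4.69e-08). Icam1 and Itgal were thus both high in CLP and preGM and low in MkP and preCFUE. Icam2 ran otherwise, with means of 108 in CLP and 124 in MkP against 274 to 311 in the other fractions. Icam4, a red cell ICAM that is also a ligand of Itga4 and Itgav receptors, did not run with Itgal either. It read 15.5 in CLP, 31.4 in preGM and 148 to 173 in the other 3, and was higher in preMegE than in preGM by 1.96 ± 0.21 (adjusted p = 1.29e-05). Vcam1 and Madcam1, the ligands of the Itga4 receptors and picked after their values were seen, had fraction means of at most 20.7 and 16.1 and did not pass (adjusted p = 0.671 and 0.155).

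**Figure D4:**
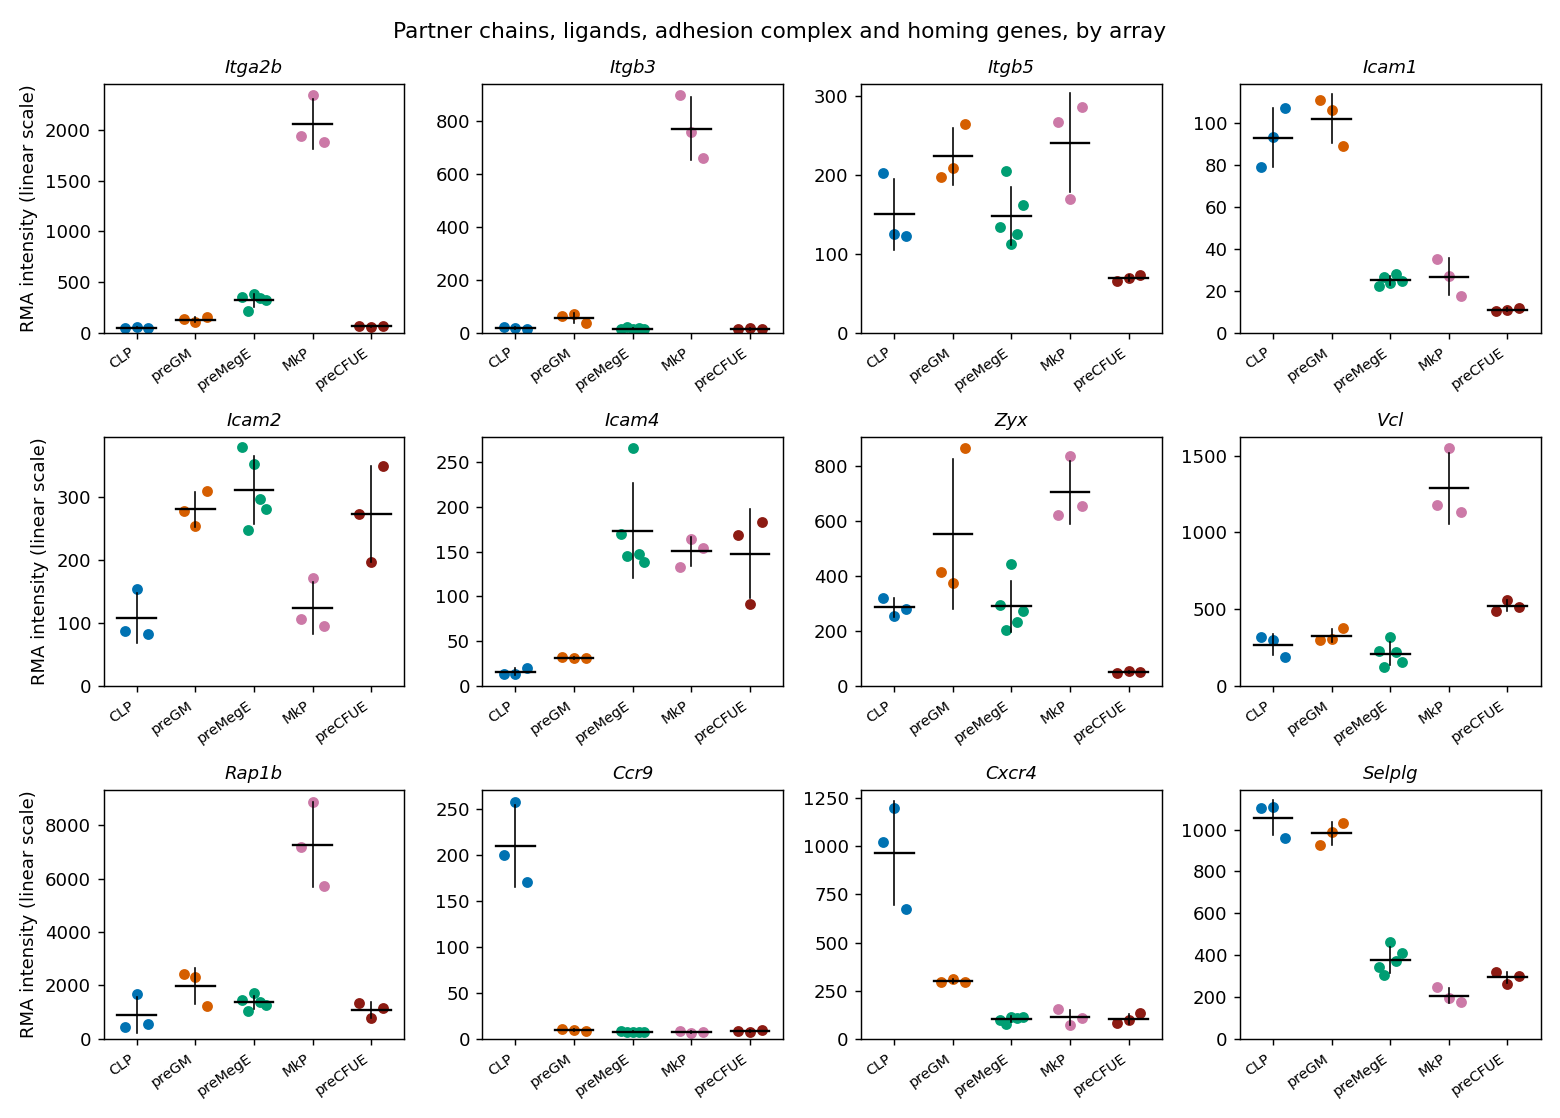
Intensity per array of genes related to the integrins, with 1 point per array, a horizontal line at the fraction mean and a vertical line of ± 1 SD, on linear axes that start at 0. Itgb3 and Itga2b are highest on the MkP arrays, Icam1 is highest on the CLP and preGM arrays, and Ccr9 is above 100 in CLP alone.

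Of 28 genes measured from a list on integrin activation and the adhesion complex, not all of them activators, 18 passed the F test, where 34.9% of all genes did. In MkP against preCFUE, 9 were higher and 1 lower, where 16.2% of all genes were called, 1003 of them higher and 1946 lower. The list's median difference was 0.13, against 0.01 for all genes. In preCFUE against preGM, 1 was higher and 9 lower, where 14% of all genes were called (1053 higher and 1502 lower), with a median of -0.19 against 0.03 for all genes. Rap1b, a small GTPase that switches integrins on in platelets, read 7265 ± 1584 in MkP and at most 1987 as the mean of any other fraction. Vcl, the linker protein vinculin, read 1287 ± 229.8 in MkP and 521 ± 35.7 in preCFUE, both above the 208 ± 75.8 of preMegE (differences 2.60 ± 0.24 and 1.33 ± 0.24, adjusted p = 5.79e-06 and 0.00245). Zyx, the focal adhesion protein zyxin, was lower in preCFUE (50.7 ± 3.76) than in preMegE (289.5 ± 94.2) by -2.15 ± 0.25 (adjusted p = 8.15e-05).

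Of 11 selectin and chemokine genes that guide homing, 9 passed the F test, where 34.9% of all genes did. Ccr9, a gut and thymus homing receptor, read 209.7 ± 44.5 in CLP and at most 9.40 as the mean of any other fraction. Ccr9 was higher in CLP than in preGM by 3.13 ± 0.10 (adjusted p = 1.02e-10). Cxcr4, the receptor that keeps progenitors in the marrow, read 966 ± 268 in CLP, 299.9 ± 9.69 in preGM, and 101 to 111 as means of the other 3. Selplg, the selectin ligand PSGL-1, read 1057 ± 83.8 in CLP and 983 ± 54.2 in preGM, and 378, 205 and 293 in preMegE, MkP and preCFUE. Like Itgal, it was lower in MkP than in preMegE, by -0.83 ± 0.13 (adjusted p = 0.000554). Unlike that of Itgal, its difference between preCFUE and preMegE did not pass (-0.34 ± 0.13, adjusted p = 0.134).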

How the data were processed

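RNA of 5 sorted fractions was measured on 17 arrays. The authors labelled small samples by a second round of in vitro transcription, per the design text, which also names scaling to a median of 100 at scanning and then RMA; the deposited values have array medians of 15.96 to 19.07 and so are not on that scale. The RMA version is not given in the sources used here. The deposited values are linear intensities of 45101 probe sets, of which 47.3% lie below 16. The number of arrays, 3 to 5 per fraction, limits the precision. Labels of all arrays also carry a gate that conflicts with their titles, and the titles were used.

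Log2 values, log2(intensity + 16), were computed from the deposited intensities. Probe sets with 1 symbol in the platform annotation (34958; 932 had several) were reduced to the one with the highest mean log2 value per gene, which gave 18193 genes. One limma fit (version 3.58.1, R 4.3.3) over all arrays gave a moderated F test and 10 comparisons, with Benjamini-Hochberg adjustment; a second fit covered all 45037 probe sets without the 64 controls. The script was tested on simulated data. The members and lists were chosen with earlier results of these data known. Genes named beside the members are the 3 most correlated with each member that passed, and up to 3 per list with the widest range among those past the F test. Alternatives were the pseudocount, filters on dim or steady genes, quantile and median scaling, array weights, a 3' to 5' covariate, a replicate block, the mean over probe sets, only the arrays compared, and leaving out each array. Promoter windows are RefSeq's (GRCm38.p6).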

Additional observations from a re-analysis of the deposited data

How the results depend on the processing

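Of the 32 differences past the test, 22 passed with the same sign under every setting run, 23 under all 17 fits without 1 array and 23 under all 12 other settings, and no sign turned. Whether the replicate numbers pair the arrays was not settled. Of 30 pairs with the same number, whose deviations correlated with r from -0.54 to 0.51, 11 exceeded 0.1. Pairs with different numbers were not compared with them. With the replicate block, 968 genes passed from preMegE to MkP, 906 from preMegE to preCFUE, 1778 for CLP against preGM, 1340 for MkP against preGM and 2619 for CLP against preMegE. Among the integrins the block took the calls of Itga6 from preMegE to MkP (0.59, adjusted p = 0.153), of Itgal from preGM to preMegE (0.0942), of Itgb1 in CLP against preGM (0.0646), of Itgav in the F test (0.0966), and of Itgb2 in MkP against preGM (0.0858) and against CLP (0.0849). The cause was not tested.

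With only genes whose SD over mean exceeds 0.5, as in the authors' filter, fewer genes were tested, and 1989 passed the F test (3 integrins), 898 from preMegE to MkP (2 integrins), 770 from preMegE to preCFUE, 1164 for MkP against preCFUE, 1161 for CLP against preGM, 1056 for MkP against preGM (2 integrins), 1381 for preCFUE against preGM, 1516 for CLP against preMegE, 1167 for CLP against MkP (2 integrins) and 1629 for CLP against preCFUE. With array weights, 9748 genes passed the F test, 3751 from preGM to preMegE, 3591 from preMegE to MkP, 3017 from preMegE to preCFUE, 4775 for MkP against preCFUE, 6430 for CLP against preGM, 6581 for MkP against preGM and 4944 for preCFUE against preGM (5 integrins). With only the arrays compared, and so fewer samples, 1 integrin passed from preGM to preMegE, and 557 genes passed for CLP against preGM, 1170 for CLP against MkP and 3473 for CLP against preCFUE. The 3' to 5' covariate left 1806 genes for CLP against preGM.

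Leaving out 1 array moved the count of genes from 1184 to 2395 for preMegE to MkP, from 1782 to 3489 for MkP against preCFUE, from 1426 to 6032 for CLP against preGM (the highest without CLP replicate 2), from 1217 to 2588 for MkP against preGM and from 2727 to 6390 for CLP against preMegE. The integrins counted ran from 1 to 4 for preGM to preMegE and from 1 to 3 for MkP against preCFUE. No scaling moved the median of all genes by over 0.1. Quantile scaling raised the share of higher calls from 38.47% to 51.44% for MkP against preMegE, 34.01% to 48.09% for MkP against preCFUE (23.9% with median centring), 27.66% to 51.64% for CLP against preGM, 32.11% to 47.91% for MkP against preGM, 35.55% to 48.73% for CLP against preMegE and 33.12% to 45.05% for CLP against preCFUE. Median centring raised it from 41.21% to 51.58% for preCFUE against preGM. Signal limits Itgam, Itga5 and the 14 probe sets with a mean below 16, whose differences the pseudocount compresses.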
